A study of Homo sapiens with 8 samples.

Results

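Bidirectional promoters lie between 2 genes that face away from each other, so that a single stretch of open DNA serves a gene on either strand. The pairs were taken from the gene annotation and the members from the peaks at them. GENCODE protein-coding genes on opposite strands whose divergent 5′ ends lay at most 1000 bp apart were paired, the ATAC-seq peaks of all conditions were merged into regions, and every region that overlapped the span between the paired 5′ ends, extended by 500 bp on either side, was kept. This gave 887 pairs holding 1710 of the 19970 protein-coding genes, at 824 separate loci. Of the pairs, 837 had at least 1 region and 50 had none, and the members were 822 of the 126658 merged regions. The median distance between paired 5′ ends was 132 bp (range, 1 to 995 bp). Read-through genes took part in 80 pairs and genes without a symbol in 64, and 61 regions served more than 1 pair. For comparison, 16492 one-gene promoters had no other protein-coding 5′ end within 1000 bp, and 9520 of them held 9830 regions.

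The cells were MCF10A, an established, immortalised line of human mammary epithelial cells of wild-type genotype, grown in serum, EGF, hydrocortisone, cholera toxin and insulin. They received TGFβ1, a cytokine that drives these cells into an epithelial-mesenchymal transition (EMT), at 5 ng/ml for 6, 24 or 72 h, or solvent, and ATAC-seq, in which a transposase cuts accessible DNA, was run on 2 replicates per condition, 8 libraries in all. Peaks had been called on both replicates together, which leaves 1 list per condition, so differences between conditions could not be tested against replicate error and no p-value is given. The lists held 86209 peaks for solvent and 107656, 118433 and 116720 for 6, 24 and 72 h. The study aimed at the same number of reads for every library, but how many reads remained in each after filtering cannot be read from the peak lists. Intervals beside shares are Wilson intervals at 95% and reflect counting alone. The cells' label was checked at textbook promoters. All 7 epithelial genes examined (KRT5, KRT14, KRT17, KRT18, EPCAM, LAMB3 and ITGB4) had a solvent peak, as did 2 (GFAP and CD68) of 7 genes that mark other cell types, while PTPRC, CD3E, CD79A, ALB and MYOD1 had none.

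Divergent gene pairs are common in the human genome and are rich in housekeeping genes, such as those for DNA repair, mitochondrial proteins and histones. Their shared promoters usually lie in CpG islands, lack a TATA box and carry sites for general activators such as NF-Y, which binds the CCAAT box, Sp and KLF proteins, which bind GC boxes, ETS proteins and NRF1. Enhancers that respond to signals are instead often bound by AP-1.

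The DNA strictly between the 5′ ends is shown first for the pair with the largest peak, 2 well-known pairs, a further pair of large peaks and a pair with an ETS site, because they hold the motifs counted among the members below. The histone pair is not typical of the members, since it has TATA boxes and a GC content of 46.4%. All sequences are the plus strand of the GRCh38 reference, so the first-named gene reads off the left end and the second off the right. Capitals mark exact matches, on either strand, to the TATA box (TATAAA), the CCAAT box (CCAAT), the Sp/KLF box (GGGCGG) or the ETS site (CCGGAAGT), and a match is a run of letters, not a bound site. H2BC21/H2AC20 (chr1:149886683-149886917) encodes histones H2B and H2A, SHC1/CKS1B (chr1:154974396-154974652) a signalling adaptor and a cyclin-dependent kinase subunit, SARS2/MRPS12 (chr19:38930764-38930943) a mitochondrial seryl-tRNA synthetase and a mitochondrial ribosomal protein, PPAT/PAICS (chr4:56435616-56435740) enzymes of purine synthesis, and COA5/UNC50 (chr2:98608516-98608578), a cytochrome c oxidase assembly factor and a Golgi protein.
H2BC21/H2AC20: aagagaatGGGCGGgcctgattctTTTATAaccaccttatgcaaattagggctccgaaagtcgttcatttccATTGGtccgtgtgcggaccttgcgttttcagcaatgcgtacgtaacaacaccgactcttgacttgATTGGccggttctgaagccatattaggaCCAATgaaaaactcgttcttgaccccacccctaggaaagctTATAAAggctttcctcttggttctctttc
SHC1/CKS1B: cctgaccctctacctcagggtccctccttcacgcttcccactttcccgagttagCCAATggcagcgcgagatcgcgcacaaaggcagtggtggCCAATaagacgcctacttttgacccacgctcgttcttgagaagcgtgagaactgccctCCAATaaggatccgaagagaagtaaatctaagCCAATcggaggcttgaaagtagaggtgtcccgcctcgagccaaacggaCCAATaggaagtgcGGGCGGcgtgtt
SARS2/MRPS12: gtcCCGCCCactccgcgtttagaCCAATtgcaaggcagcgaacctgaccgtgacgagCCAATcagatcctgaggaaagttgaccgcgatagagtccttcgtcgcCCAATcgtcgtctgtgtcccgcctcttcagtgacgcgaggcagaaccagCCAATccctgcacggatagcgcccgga
PPAT/PAICS: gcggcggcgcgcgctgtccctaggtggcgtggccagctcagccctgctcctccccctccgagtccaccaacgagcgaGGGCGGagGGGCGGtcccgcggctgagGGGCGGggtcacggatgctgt
COA5/UNC50: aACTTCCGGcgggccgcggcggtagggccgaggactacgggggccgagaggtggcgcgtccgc

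The next set holds pairs that were lower at 72 h or had no peak. COL4A4/COL4A3 (chr2:227164454-227164623) encodes type IV collagen chains of basement membranes, CLDN1/CLDN16 (chr3:190322447-190322540) tight-junction claudins and HES2/ESPN (chr1:6424671-6424775) a bHLH transcription factor and the actin-bundling protein espin, and these 3 were lower at 72 h. H2AC1/H2BC1 (chr6:25726563-25726776), a testis histone pair, DUOX2/DUOXA2 (chr15:45114173-45114325), a dual oxidase and its maturation factor, and OR11A1/OR2H1 (chr6:29457072-29457154), a pair of olfactory receptors, had no peak in any list. The spacers of H2BC21/H2AC20 and H2AC1/H2BC1 both carried 2 TATA boxes and 3 CCAAT boxes, yet the first was the largest member and the second had no region.
COL4A4/COL4A3: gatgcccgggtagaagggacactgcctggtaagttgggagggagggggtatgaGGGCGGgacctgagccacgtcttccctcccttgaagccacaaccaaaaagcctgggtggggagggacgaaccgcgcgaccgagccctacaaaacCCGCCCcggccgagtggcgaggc
CLDN1/CLDN16: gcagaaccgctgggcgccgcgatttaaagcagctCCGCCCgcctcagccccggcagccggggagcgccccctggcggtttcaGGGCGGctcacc
HES2/ESPN: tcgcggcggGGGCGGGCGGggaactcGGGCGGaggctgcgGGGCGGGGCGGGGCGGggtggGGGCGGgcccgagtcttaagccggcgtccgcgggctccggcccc
H2AC1/H2BC1: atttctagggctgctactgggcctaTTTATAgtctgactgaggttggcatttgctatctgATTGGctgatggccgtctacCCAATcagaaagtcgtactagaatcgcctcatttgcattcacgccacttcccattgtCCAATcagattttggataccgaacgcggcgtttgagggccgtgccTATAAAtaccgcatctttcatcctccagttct
DUOX2/DUOXA2: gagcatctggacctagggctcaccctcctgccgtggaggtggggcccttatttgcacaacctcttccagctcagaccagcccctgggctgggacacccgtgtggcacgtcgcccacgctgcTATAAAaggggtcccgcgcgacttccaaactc
OR11A1/OR2H1: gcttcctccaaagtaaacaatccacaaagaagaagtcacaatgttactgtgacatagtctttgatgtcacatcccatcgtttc

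Bidirectional promoters were nearly always accessible. In solvent, 834 of the 887 pairs had a peak (94.0%, 95% interval 92.3 to 95.4%), against 9105 of 16492 one-gene promoters (55.2%, 54.4 to 56.0%). The shares barely moved with TGFβ1: 94.4, 94.4 and 94.3% of pairs had a peak at 6, 24 and 72 h, against 56.9, 57.1 and 56.5% of one-gene promoters. Among one-gene promoters the share differed with the type of neighbour, with a solvent peak at 80.5% (78.4 to 82.4%) of those with a divergent non-coding gene and at 50.6% (49.8 to 51.5%) of those with no partner at all. A pair's window is longer than that of a single gene by the distance between its genes, and with one-gene windows of 1000 bp on either side the gap in solvent was 36.0 percentage points instead of 38.8. Distance between the paired genes made little difference, since 94.2, 92.9, 96.3 and 90.8% of pairs up to 100, 101 to 200, 201 to 500 and 501 to 1000 bp apart had a solvent peak, with overlapping intervals.

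**Figure D1:**
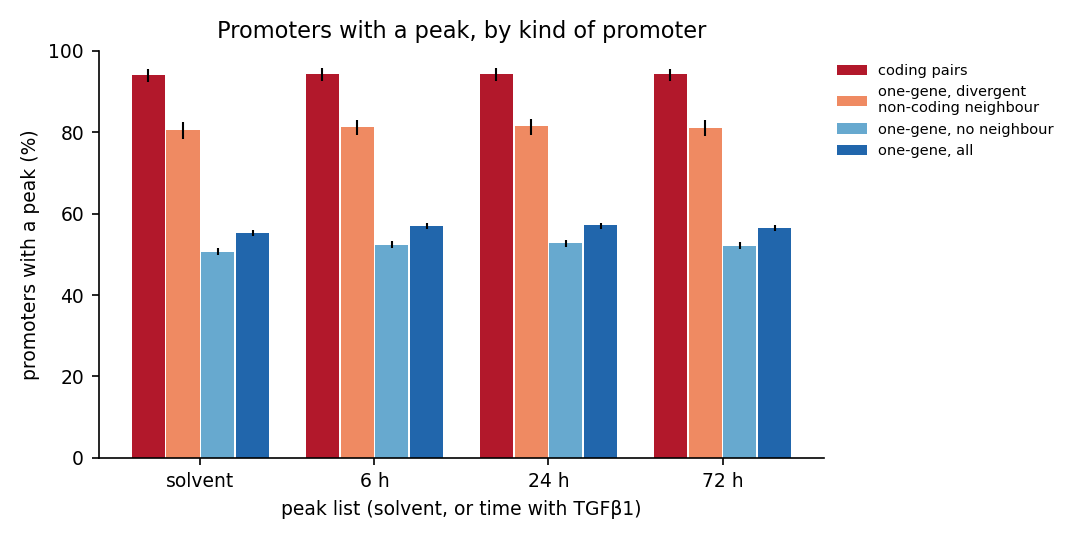
Share of promoters with a peak (percent, vertical axis) in each of the 4 peak lists, for protein-coding pairs and classes of one-gene promoters. Error bars are 95% Wilson intervals. Pairs stay at 94.0 to 94.4% in every list, above the 80.5 to 81.4% of genes with a divergent non-coding partner and the 50.6 to 52.7% of genes with none.

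Base composition differed between the classes in the same direction. Of the pairs, 770 had a window of 300 bp around their middle with a GC content of at least 50% and a CpG observed over expected ratio of at least 0.6, and 96.8% (95.3 to 97.8%) of these had a region in some list. Among the other 117 pairs the share was 78.6% (70.4 to 85.1%). One-gene promoters of high GC and CpG had a region in 80.9% of 9054 cases, and the remaining 7438 in 29.5%. The gap between pairs and one-gene promoters was therefore 15.8 percentage points among promoters of high GC and CpG, a split chosen after the data were seen, and 36.6 points over all of them. Among one-gene promoters with a divergent non-coding partner, 88.8% (86.9 to 90.4%) of the 1298 of high GC and CpG had a region, and 38.0% of the other 213. A pair was counted through a region anywhere in its window, so a region at either 5′ end sufficed. Pairs stayed above one-gene promoters on both sides of this split, and how much of the gap composition accounts for was not tested.

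The 50 pairs without a region included genes known from other tissues, which were not counted as a class. Examples are GABRA4/GABRB1, subunits of the GABA-A receptor of neurons, MS4A6A/MS4A4A of myeloid cells, WNT3/WNT9B, which encode developmental ligands, SMC1B/RIBC2, whose first gene encodes a meiotic cohesin, and CSAG1/MAGEA12, a cancer-testis pair. They also held pairs with a gene in broad use, such as CFAP90/MTRR and PRSS54/GINS3. MTRR and GINS3 did have a region at the 5′ end of their canonical transcript. These examples, and the testis histone, oxidase and olfactory pairs printed above, were chosen after the values were seen. The MAGEA and CSAG pairs and BOLA2/SLX1B lie in near-identical copies, where reads of low mapping quality were discarded, so their lack of a peak is uncertain. In 14 of the 50 the annotated outermost 5′ end was not the start of the canonical transcript and a region was present at the canonical 5′ end of either gene, as for ARRDC5/UHRF1 and BTBD18/CTNND1; the other 36 had none there either. Their middle windows had a median CpG observed over expected ratio of 0.625 against 0.884 in pairs with a region, and 40.0% against 72.5% held an Sp/KLF box.

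Where a peak was present, bidirectional promoters had more signal and wider peaks than one-gene promoters in every list. The signal is the AUC, the area under the significance curve of a peak, summed over the peaks of a list in a region. In solvent the median AUC was 3591 (quartiles, 2193 and 4809) over 809 member regions and 2878 (1543 and 4333) over 9275 one-gene regions, while all merged regions had a median of 754. The ratio of the medians was 1.25, 1.25, 1.27 and 1.24 in solvent and at 6, 24 and 72 h. Median width in solvent was 1236 bp at pairs and 1076 bp at one-gene promoters, and the width ratio was 1.15, 1.16, 1.18 and 1.17. Much of the AUC difference was width, since AUC per base differed by a ratio of 1.10, 1.09, 1.09 and 1.10 only.

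Genes whose divergent partner is non-coding had nearly the same AUC and width as pairs. Against one-gene promoters with a divergent non-coding partner the AUC ratio was 1.02, 1.01, 1.03 and 1.00, with a solvent median width of 1230 bp beside the 1236 bp of pairs. Against genes with no partner it was 1.35, 1.36, 1.38 and 1.34. Median AUC and width of the members varied with the distance between the genes. Solvent width went from 1156 bp for pairs up to 100 bp apart to 1222, 1336 and 1420 bp in the wider classes, and AUC from 3369 to 3719, 3903 and 3549, with quartiles that overlapped widely.

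**Figure D2:**
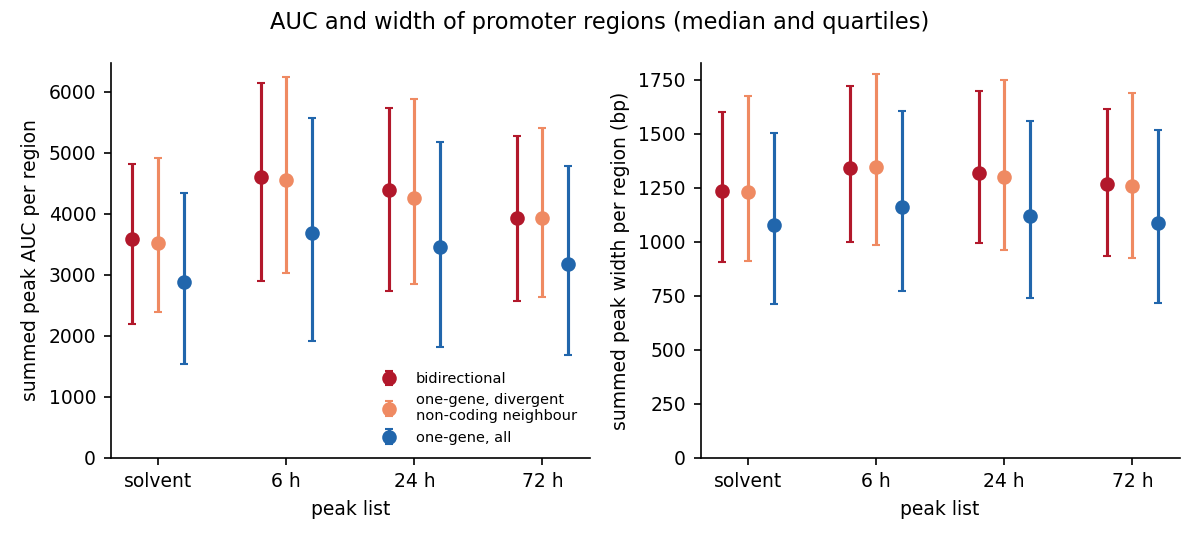
Median summed AUC (left) and median summed width in bp (right) of regions with a peak, by list and promoter class, with bars from the lower to the upper quartile. Pairs have a larger median than one-gene promoters in every list (3591 against 2878 for AUC in solvent) while their quartile ranges overlap.

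Most of the peaks covered both genes' 5′ ends. Taking the strongest solvent peak of the 773 strongest regions, 91.6% covered both 5′ ends, a share of 96.7% for genes up to 100 bp apart and 54.2% for those over 500 bp apart. Summits lay on the minus-strand side of the middle in 393 of 773 (50.8%), a median of 81.0 bp from it, and between the 5′ ends in 42.9%. The peaks reached a median of 524 bp past the minus-strand 5′ end and 490 bp past the plus-strand 5′ end. Which gene of a pair lies on the minus strand is arbitrary, so these values cannot show whether single peaks leaned towards either gene. Both reaches run into a gene. At one-gene promoters the peak reached 359 bp upstream and 669 bp into the gene. Genes with a divergent non-coding partner had 506 bp upstream and 680 bp downstream.

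The sequences under the summits were those of CpG islands. In 300 bp windows around the strongest solvent summit, members had a median GC content of 65.3% and a CpG ratio of 0.860, one-gene promoters 67.3% and 0.840, and all merged regions 49.0% and 0.243. The Sp/KLF box, as in the 3 copies of the PPAT/PAICS spacer, was in 74.4% of members, 72.1% of one-gene promoters and 21.0% of all regions. The CCAAT box, present 5 times between SHC1 and CKS1B and 4 times between SARS2 and MRPS12, was in 42.0% (38.7 to 45.5%) of members, 34.7% (33.7 to 35.6%) of one-gene promoters and 33.1% of all regions. The ETS site seen in COA5/UNC50 was in 13.7% (11.5 to 16.3%), 6.82% (6.33 to 7.36%) and 1.46%, and the NRF1 site (GCATGCGC) in 6.92%, 4.35% and 1.10%. These letters were thus more frequent at pairs than at one-gene promoters, beyond counting error for CCAAT, ETS and NRF1.

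Other letters were rarer. The AP-1 site (TGANTCA) was in 2.72% (1.80 to 4.08%) of members, 7.29% (6.78 to 7.84%) of one-gene promoters and 40.2% of all merged regions. The E-box CACCTG was in 17.7, 22.1 and 26.1%, and the TATA box in 3.58, 4.01 and 13.0%. At one-gene promoters with a divergent non-coding partner the AP-1 site was in 4.38% (3.37 to 5.67%), an interval overlapping that of members. The YY1 site (ATGGCGGC) and the CRE (TGACGTCA) differed little between members and one-gene promoters, at 5.93 against 5.10% and 3.71 against 2.65%, and were in 1.03 and 0.798% of all regions. All motifs were searched on both strands. None of these motifs contains another, and overlapping matches of 1 motif count once per window. Members with a CCAAT box had a median solvent AUC of 4004 (340 regions) and those without 3173 (469 regions), and their median centred change at 72 h was the same.

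The change with TGFβ1 was small and nearly uniform. Because the lists were not scaled to each other, the log2 ratio of AUC over solvent was centred on its median over all merged regions that had peaks in both, which was 0.51, 0.50 and 0.39 at 6, 24 and 72 h (folds of 1.42, 1.42 and 1.31). The members' median centred ratio was -0.14, -0.23 and -0.24, with an interquartile range of 0.13, 0.14 and 0.14. One-gene promoters had -0.11, -0.20 and -0.23 with ranges of 0.18, 0.21 and 0.19, and all merged regions had ranges of 0.42, 0.59 and 0.64. One-gene promoters with a divergent non-coding partner were close to members, at -0.13, -0.22 and -0.25 with ranges of 0.14, 0.17 and 0.15. The sign depends on the centring, since without it the members' medians were 0.37, 0.27 and 0.15 and their AUC exceeded that of solvent in 99.9, 98.1 and 91.8% of regions. Over all merged regions with both peaks these shares were 97.2, 93.4 and 87.7%. Of the 805 members with a peak in every list, 585 (72.7%) had AUCs in the order 6 h, 24 h, 72 h, solvent from high to low, and solvent was the lowest in 736 (91.4%). One-gene promoters with a peak in every list had that order in 63.6% and solvent lowest in 88.2%. Whether that order lies in the cells or in the depth of the libraries cannot be told apart here.

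Members of similar solvent AUC changed much like one-gene promoters. When regions were split into 5 classes by the members' solvent AUC, the median centred ratio at 72 h was -0.15, -0.21, -0.25, -0.26 and -0.28 for members and -0.12, -0.21, -0.24, -0.25 and -0.28 for one-gene promoters, from the weakest class to the strongest. The difference in the overall medians, -0.03, -0.03 and -0.02, became -0.01, -0.01 and 0.00 when one-gene regions were weighted to the members' solvent AUC.

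Few members passed a 1.5-fold change of the centred ratio, a count that rests on the centring. At 6 h, 5 of 809 were higher (0.618%, beside 9.76% of all merged regions) and 1 lower (0.124%, beside 1.92%). At 24 h, 5 of 809 were higher (0.618%, beside 15.7%) and 8 lower (0.989%, beside 4.89%), and at 72 h 5 of 805 were higher (0.621%, beside 17.5%) and 10 lower (1.24%, beside 6.01%). One-gene promoters lay between, with 1.89, 2.32 and 1.86% higher and 0.464, 1.73 and 3.01% lower. The members' shares were under those of all one-gene promoters at each time. For the lower ones, though, the intervals overlapped at 6 h (0.0218 to 0.697% and 0.345 to 0.624%) and at 24 h (0.502 to 1.94% and 1.49 to 2.02%). With a divergent non-coding partner, 0.811, 0.893 and 0.895% of one-gene promoters were higher and 0.324, 0.812 and 1.71% lower. Their intervals overlapped those of members at each time. Without centring 62, 41 and 14 members were higher (7.66, 5.07 and 1.74%) and 0, 0 and 2 lower. The uncentred share over all merged regions was not counted, and their median fold was 1.42, 1.42 and 1.31. After one-gene regions were weighted to the members' solvent AUC, the gap in the share past the limit in either direction went from 1.61, 2.44 and 3.01 to 0.463, 0.782 and 1.25 percentage points. At 72 h, 14 of the 15 called members were in the weakest of the 5 solvent AUC classes, below 1973, where 8.86% of members and 12.3% of one-gene promoters passed the limit.

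Peaks seldom appeared or vanished at pairs. A peak without a solvent counterpart was found in 13 member regions at 6 h (1.58%, beside 23.0% of all regions with a 6 h peak), 9 at 24 h (1.10%, beside 30.2%) and 3 at 72 h (0.371%, beside 30.1%). A solvent peak was missing at 6 h in 0 members (beside 0.714%), at 24 h in 0 (beside 1.86%) and at 72 h in 4 (0.494%, beside 3.44%). For one-gene promoters 386, 423 and 313 regions were gained of 9655, 9660 and 9514 with a peak, and the share lost was 0.0647, 0.410 and 0.798%. For those with a divergent non-coding partner the share gained was 1.83, 1.68 and 1.13% and the share lost 0, 0.0811 and 0.324%.

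Many of these members were weak regions beside the main one. When the region of largest AUC of each pair was set apart, a split made after the data were seen, 776 strongest regions remained with a median solvent AUC of 3697 and width of 1267 bp, and 46 further regions with 621 and 350 bp. Of the strongest regions, 773 had a peak in all 4 lists. At 6, 24 and 72 h, 1, 2 and 1 were higher (0.129, 0.259 and 0.129%) and 0, 5 and 7 lower (0, 0.647 and 0.906%). Strongest regions of one-gene promoters were higher in 1.80, 2.23 and 1.83% and lower in 0.322, 1.46 and 2.72%. Of the pairs' 36, 36 and 32 further regions with both peaks, 4, 3 and 4 were higher (11.1, 8.33 and 12.5%, beside 9.76, 15.7 and 17.5% of all merged regions) and 1, 3 and 3 lower (2.78, 8.33 and 9.38%, beside 1.92, 4.89 and 6.01%). Further regions of one-gene promoters were higher in 4.81, 5.47 and 2.89% and lower in 5.19, 11.3 and 13.6%. When the region of largest solvent AUC of each pair was taken instead, 773 regions remained, of which 1, 2 and 0 were higher and 0, 5 and 7 lower. All 4 lost members and 10 of the 13 without a solvent peak were further regions. Ranking by AUC over the 4 lists itself favours regions with a peak in each, so these counts partly follow from the split. A region without a solvent peak could not rank as largest in solvent. At 72 h, 728 of the 773 strongest regions (94.2%) lay within 0.25 of their own median log2 ratio, against 82.6% of the strongest regions of one-gene promoters. These sets were not matched on AUC, with solvent medians of 3697 and 2943. In the 5 solvent AUC classes, members had interquartile ranges at 72 h of 0.26, 0.13, 0.11, 0.10 and 0.09. One-gene promoters had 0.39, 0.17, 0.14, 0.12 and 0.11.

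Among the strongest regions, 7 were lower at 72 h. CLDN1/CLDN16 encodes CLDN1, a claudin of epithelial tight junctions, and CLDN16, known from the kidney. Its AUC was 2037 in solvent and 2219, 1955 and 1696 at 6, 24 and 72 h, a centred log2 ratio of -0.66 at 72 h. The collagen pair COL4A4/COL4A3 had 1587, 1898, 1549 and 1354 (-0.62). At both the 72 h AUC was the lowest of the 4, below solvent also without centring (-0.26 and -0.23), while both exceeded solvent at 6 h.

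HES2/ESPN had the lowest centred ratio of all members at 72 h, with an AUC of 544 in solvent and 812, 437 and 337 after TGFβ1 (-1.09 at 72 h), and its peak width went from 630 bp in solvent to 196 bp at 72 h. BST2/MVB12A encodes the antiviral membrane protein tetherin and an ESCRT-I subunit. It had 371, 447, 451 and 245 (-0.99), a drop seen at 72 h alone. LANCL1/CPS1, whose second gene encodes the first enzyme of the urea cycle, had 679, 764, 486 and 508 (-0.81), low at both 24 and 72 h. MYEF2/SLC12A1, which pairs a transcriptional repressor with a kidney salt transporter, had 1614, 1786, 1599 and 1277 (-0.73). PLPP3/PRKAA2, which pairs a lipid phosphatase with a catalytic subunit of AMPK, had 1546, 2426, 2176 and 1346 (-0.59), and thus rose before it dropped. Each of the 7 had a 72 h AUC below that of solvent on the deposited scale.

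The 1 strongest region that was higher at 72 h lay at LSM7/SPPL2B, which pairs an RNA-binding Sm-like protein with an intramembrane protease. Its AUC was 459 in solvent and 899, 949 and 925 after TGFβ1 (0.62 at 72 h), so that all 3 treated lists were about level. It was not the pair's largest region in solvent, since a neighbouring one had 614, 858, 690 and 631 (-0.35), and it counted as strongest through its AUC in the treated lists. FOXL2/FOXL2NB, named for a forkhead factor of the ovary, had 820, 1725, 1683 and 1574 (0.55), and NELFA/C4orf48, whose first gene encodes a subunit of the negative elongation factor, had 988, 1878, 1734 and 1837 (0.50). Both stayed under the limit. Neither showed a difference between the treated lists as large as that to solvent.

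Strongest regions that passed the limit at earlier times are described next. At 6 h GPR143/SHROOM2, a pigment-cell receptor gene and the gene of an actin-binding protein, was higher (255 in solvent and 767 at 6 h, 1.08) and had 324 at 72 h (-0.05). At 24 h SATL1/ZNF711, the second a zinc finger gene, was higher (269 in solvent and 739 at 24 h, 0.96), as was SIRT6/ANKRD24, the first a deacylase gene (501 and 1131, 0.67). At 72 h these had 327 and 600, with centred ratios of -0.11 and -0.13. Lower at 24 h were HES2/ESPN (-0.82) and LANCL1/CPS1 (-0.99), which were also lower at 72 h. Lower at 24 h alone were CHDH/IL17RB, a choline dehydrogenase gene and a cytokine receptor gene (735 and 539, -0.95), NUP62CL/DNAAF6 (939 and 816, -0.70) and HRAS/LRRC56 (971 and 902, -0.61). These 3 had AUCs of 710, 907 and 972 at 72 h and centred ratios of -0.44, -0.44 and -0.39, under the limit but below the members' median of -0.24.

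Pairs with a higher call from a further region at 72 h had a main region that did not pass the limit. SEZ6L2/ASPHD1 had a further region with an AUC of 610 in solvent and 867, 1115 and 1458 after TGFβ1 (0.86 at 72 h), beside a main region of 1704, 2353, 2256 and 2114 (-0.08). TRADD/FBXL8, whose first gene encodes an adaptor of the TNF receptor, had 219, 680, 642 and 501 (0.80) beside 3851, 4618, 4445 and 3780 (-0.42). The small and the large region of a pair thus went different ways on the centred scale, and the main region of TRADD/FBXL8 lay at the members' 5th percentile, -0.42. RHBDF1/MPG, an inactive rhomboid gene and a DNA glycosylase gene, had 386, 792, 916 and 878 (0.79) beside a main region at -0.10, and RAD52/ERC1, the first a recombination gene, had 249, 551, 541 and 500 (0.61) beside one at -0.25. MED31/C17orf100 had a further region of 274, 521, 500 and 473 (0.40), under the limit.

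Further regions also gave 3 of the 10 lower calls at 72 h. WASF1/CDC40, an actin regulator gene and a splicing factor gene, had 655, 885, 808 and 498 (-0.79) beside a main region of 4381, 5889, 5324 and 5004 (-0.20). FUBP1/GIPC2 had 284, 441, 390 and 229 (-0.70) beside a main region at -0.27. HAUS8/MYO9B had 301, 635, 531 and 262 (-0.59). In each the 6 h AUC was the highest and the 72 h AUC the lowest.

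**Figure D3:**
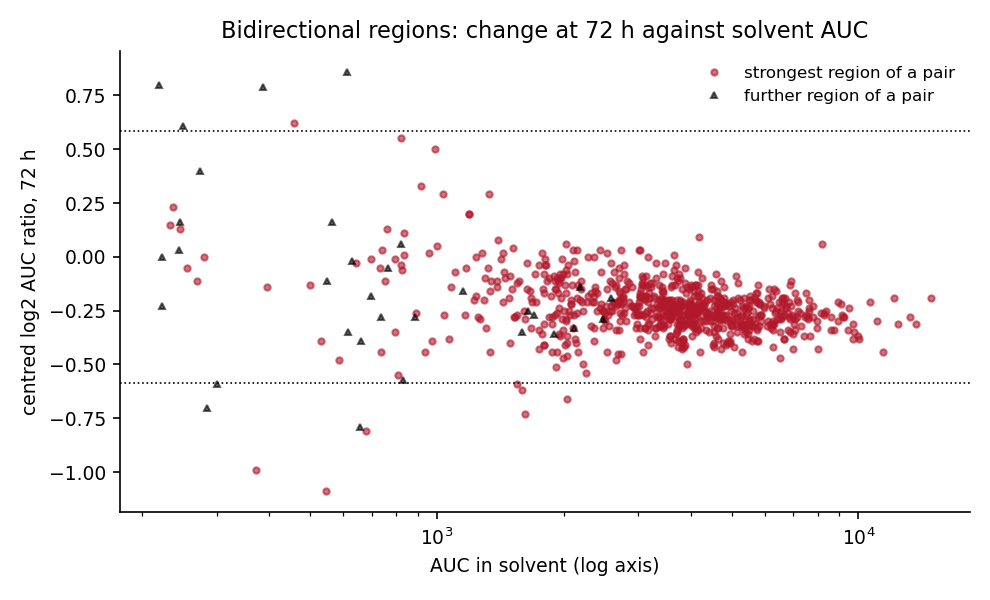
Summed AUC (log axis) of members, among them those with the highest and lowest centred ratio at 72 h. HES2/ESPN and BST2/MVB12A have their lowest AUC at 72 h (337 and 245), whereas LSM7/SPPL2B and TRADD/FBXL8 have their lowest in solvent (459 and 219).

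In 3 pairs no solvent peak was found in the pair's window. PAQR9/U2SURP, the second a spliceosome gene, had AUCs of 352, 377 and 328 at 6, 24 and 72 h. SOX18/TCEA2, a transcription factor gene of endothelial cells and an elongation factor gene, had 388, 558 and 221. PSMA1/PDE3B, a proteasome subunit gene and a phosphodiesterase gene, had 241 and 222 at 6 and 24 h and no peak at 72 h. Their AUCs of 221 to 558 compare with a smallest AUC of 200 in the lists and a median of 3928 for members at 72 h. The canonical 5′ ends of these genes were not examined, so the values do not show that the genes lacked an open promoter in solvent. The other named gains were further regions: ZNF106/SNAP23 had a peak in all treated lists (426, 446 and 458), while COA5/UNC50, FAU/MRPL49, HMGN5/SH3BGRL and KCTD10/UBE3B had peaks of 212 to 266 at 6 and 24 h alone. The 4 lost ones were CIDEB/LTB4R, ATP5MK/PDCD11, BAP1/PHF7 and FAM227B/DTWD1, with solvent AUCs of 368, 281, 278 and 253, and their main regions had centred ratios of -0.35, -0.24, -0.24 and -0.26 at 72 h.

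Of 20 textbook head-to-head pairs, 12 met the rule and all 12 had a region in every list. PPAT/PAICS had AUCs of 7603 in solvent and 9252, 8591 and 8203 at 6, 24 and 72 h. PDCD10/SERPINI1, a gene of vascular integrity and a neuronal serpin gene, had 9221, 11220, 10636 and 9958. These showed the common course, highest at 6 h and lowest in solvent. So did PRKDC/MCM4, a DNA repair kinase gene and a replicative helicase gene, with 6715, 8358, 7669 and 7464, and SARS2/MRPS12 with 3452, 4373, 4079 and 3924. TK1/AFMID, the first the thymidine kinase gene, departed from it at 72 h, with 3697, 4764, 4428 and 4710, a centred ratio of -0.04. COL4A6/COL4A5 had 733, 951, 1031 and 927, so the 2 collagen pairs were the weakest of the 12, and COL4A4/COL4A3 alone passed the limit. The remaining pairs, NPAT/ATM, TMEM258/FEN1, PSMB1/TBP, SIRT3/PSMD13 and NTHL1/TSC2, had solvent AUCs of 3333 to 5979 and centred ratios of -0.31 to -0.20 at 72 h. Among the 8 pairs that did not meet the rule, SURF1/SURF2 and GART/SON overlap head to head by 126 and 453 bp, and each had a region in every list.

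**Figure D4:**
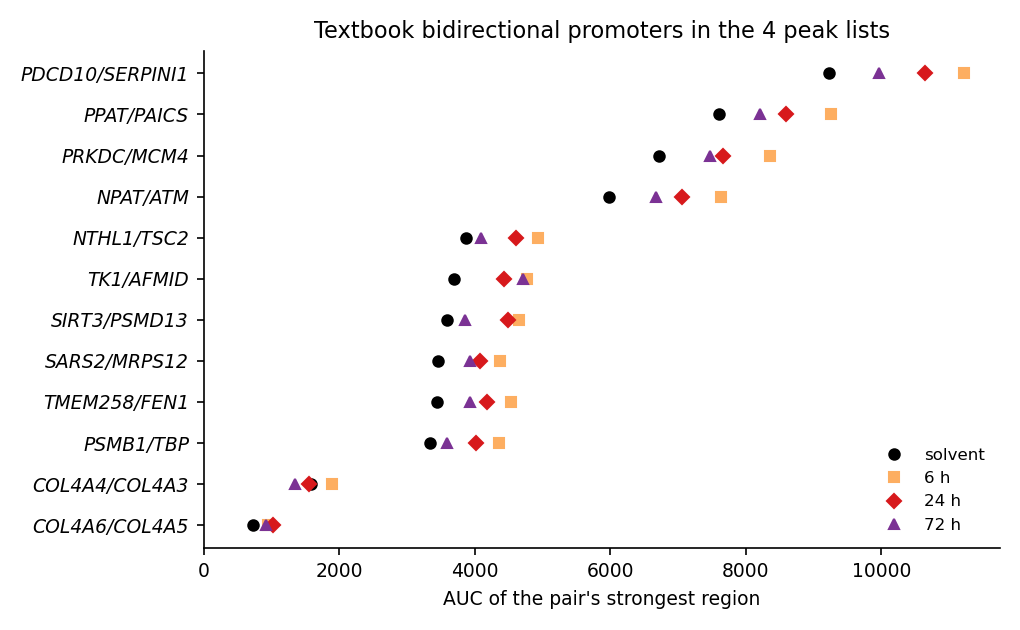
Summed AUC of the 12 textbook pairs in the 4 lists. PDCD10/SERPINI1 is the highest (9221 in solvent) and COL4A6/COL4A5 the lowest (733), and the AUC at 6 h exceeds that of solvent at every pair.

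The 5 pairs of largest solvent AUC had different functions. H2BC21/H2AC20 had an AUC of 14878 in solvent and 18932, 16746 and 17159 after TGFβ1 over a width of 4417 bp, the largest in both AUC and width. CEP170/SDCCAG8, a pair of centrosomal protein genes, had 13714, 16799, 15430 and 14564. MBOAT7/TSEN34, an acyltransferase gene and a tRNA-splicing endonuclease gene, had 13228, 16410, 15472 and 14259. SHC1/CKS1B had 12117, 16297, 15099 and 13982, and ARID4B, paired with an unnamed gene, had 12382, 15555, 14300 and 13085. None moved by more than 0.33 from the centre at any time. Further wide regions were those of GPR108/TRIP10, POLR2L/TSPAN4 and NEMP1/NAB2, at 3948, 3930 and 3634 bp in solvent.

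Gene groups were described by their counts. The histone pairs had 13 regions with a median solvent AUC of 4548 and centred medians of -0.16, -0.38 and -0.19, beside -0.14, -0.23 and -0.24 for all members and 0.00 for all merged regions, and none passed the limit (range at 24 h, -0.49 to -0.15). Their sequences stood apart, with a TATA box in 8 of 13 windows (61.5%, beside 3.58% of members), a CCAAT box in 11 (84.6%, beside 42.0%), an Sp/KLF box in 5 (38.5%, beside 74.4%) and a median GC content of 45.3%. Several histone pairs share a cluster and are near-identical in their coding parts. DNA repair and replication pairs had 41 regions with a median AUC of 3749, a CCAAT box in 26 of 39 windows (66.7%) and no TATA box, and 1 region, the further one of RAD52/ERC1, was higher at each time, 1 of 39 regions beside 9.76, 15.7 and 17.5% of all merged regions.

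Pairs of the mitochondrial ribosome and respiratory chain had 46 regions of lower AUC, a median of 2488, with an ETS site in 10 of 44 windows (22.7%, beside 13.7% of members), and none passed the limit at any time. The zinc finger pairs were similar, with 32 regions, a median AUC of 2481 and an ETS site in 22.6%, and 1 of 31 (SATL1/ZNF711) was higher at 24 h, beside 15.7% of all merged regions. Translation pairs (24 regions, median AUC 3687) and proteasome and chaperone pairs (22 regions, 3964) had no region past the limit. Cell cycle pairs (18 regions, 3360) had 1 of 18 lower at 72 h, beside 6.01% of all merged regions, the further region of WASF1/CDC40, which entered through the symbol of a splicing factor. Pairs sought by matrix, adhesion and TGFβ pathway symbols had 12 regions with the lowest median AUC of the lists, 1411. Of their 10 regions with both peaks, 2 were lower at 72 h, COL4A4/COL4A3 and CLDN1/CLDN16, beside 1.24% of members and 6.01% of all merged regions. The list was drawn by symbol and also holds genes such as KRTCAP2, a glycosyltransferase subunit gene, whose products are neither matrix nor adhesion proteins. None of its regions was named for a TGFB, SMAD, BMP, INHB or LTBP gene, so the list does not describe promoters of those TGFβ pathway genes.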

How the data were processed

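ATAC-seq libraries of MCF10A cells were read from 4 deposited peak lists in narrowPeak layout, whose conditions are given by their names. Per the study's methods and the submitters' processing notes, the authors trimmed reads (Trimmomatic 0.38), mapped them to GRCh38 (Bowtie2 2.4.5), removed duplicates (Picard), mitochondrial and low-quality reads (SAMtools 1.4.1) and called peaks on both replicates together with Genrich 0.5. The deposited signal is the AUC (minimum, 200), which grows with depth and width and was not scaled between lists. The authors' −log10 q values were read only as a check. Solvent samples are labelled as time 0, whereas a legend of the study gives solvent for 72 h. The depth reached per library is not held in the lists.

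Lists were merged at 1 shared bp, and AUC and width were summed per region and list. Genes and 5′ ends came from GENCODE 44. A region at both a pair and a one-gene promoter counted as the pair's. Ratios used regions with a peak in both lists and a limit of 1.5-fold after centring. No test was possible with 1 list per condition. The members and gene lists were chosen with earlier results of these data known. Named were the textbook pairs, the 5 pairs of largest and the 5 of widest solvent region, the 8 highest and 8 lowest at 72 h, up to 8 gained in at least 2 treated lists and up to 8 lost at 72 h, and beyond this rule every strongest region past the limit and HAUS8/MYO9B, chosen after their values were seen. A textbook pair outside the rule is not reported here. Alternatives covered AUC limits, pair and promoter definitions, centring, AUC per base and the fold limit. The calculations were tested on simulated data. The scripts used matplotlib 3.10.9, scipy 1.17.1, pandas 2.3.3 and numpy 2.4.6 in Python 3.11.15.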

Additional observations from a re-analysis of the deposited data

How the results depend on the processing

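No paired analysis was possible because each list pools both replicates of its condition, and for the same reason no replicate could be left out. Over 17 other settings, 179 of 263 values stayed within their spread or 1.5 times the main count, 84 moved and 0 reversed. The main gap in the share with a peak, pairs minus one-gene promoters, was 38.8, 37.5, 37.3 and 37.7 points in solvent and at 6, 24 and 72 h. It was 38.9 at 24 h with an AUC of at least 400, 43.4, 42.0, 41.7 and 42.1 against promoters with no 5′ end of any gene nearby, 36.0, 34.5, 34.2 and 34.6 with one-gene windows of 1000 bp on either side, and 15.8 in any list (main, 36.6) where GC and CpG were both high. The AUC ratio became 1.35, 1.35, 1.38 and 1.34 against promoters with no 5′ end nearby (width, 1.21, 1.23, 1.24 and 1.23), 1.35, 1.39, 1.42 and 1.36 with the wider one-gene windows (width, 1.22, 1.25, 1.26 and 1.24), and 1.30 at 72 h with canonical transcripts (width, 1.20, 1.20 and 1.21 in solvent and at 6 and 72 h). Counting pairs that overlap head to head as well gave 1396 pairs and 1298 regions.

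The members' median centred ratio was -0.10, -0.16 and -0.18 with an AUC of at least 400, 0.37, 0.27 and 0.15 without centring, -0.03, -0.03 and -0.02 when centred on one-gene promoters, and -0.04, -0.12 and -0.11 for AUC per base. Its gap to one-gene promoters was -0.04, -0.03 and -0.03 against those with no 5′ end nearby, -0.01 at 6 and 72 h per base, and -0.01, -0.01 and 0.00 after weighting to the members' AUC. The share of members past the limit in either direction, 0.742, 1.61 and 1.86% at 6, 24 and 72 h, was 7.66 and 5.07% at 6 and 24 h without centring, 2.22% at 6 h for the strongest peak, 1.12% at 72 h per base, 0.247, 0.124 and 0.124% at 2-fold, and 0.129, 0.906 and 1.03% for strongest regions only (0.129, 0.906 and 0.906% when chosen by solvent AUC, an alternative added after the data were seen). The gap by which one-gene promoters exceeded it, 1.61, 2.44 and 3.01 points, was 1.59 at 72 h with an AUC of at least 400, 3.88 and 3.97 at 24 and 72 h for the strongest peak, 2.19, 3.43 and 4.15 with the wider windows, 7.33, 6.63 and 5.04 without centring, 3.36 at 24 h centred on one-gene promoters, 0.463, 0.782 and 1.25 weighted to AUC, and 0.292, 1.03 and 1.18 at 2-fold. One-gene promoters exceeded the members under all of these. Fewer regions are tested at higher AUC limits; the causes of the other shifts were not tested.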
